A study of Mus musculus with 63 samples.

Results

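The genes of major histocompatibility complex (MHC) antigen presentation were followed in mouse organotypic entorhino-hippocampal tissue cultures by RNA-seq, as 10 genes chosen by symbol out of 55291 gene symbols in the count tables. Members were distinguished by role, namely the class I heavy chains H2-D1, H2-K1 and H2-T23 with their common light chain B2m, the peptide transporter subunits Tap1 and Tap2 with tapasin (Tapbp), the class I transactivator Nlrc5, and the class II genes Cd74 and H2-Aa. In the dentate gyrus (DG) of Synpo+/+ cultures 5 of the 10 members, all of the class I pathway, were higher after lesion of the entorhinal cortex (ECL), beside 12.2% of all genes called and 7.86% called higher. With 1 library left out 1 to 4 members passed there, beside 3.99% to 14.4% of all genes called. After a trend with gene length had been removed 1 of 10 did, beside 9.81%. No member passed the test in CA3 of either genotype, and the lesion effects in DG and CA3 of Synpo+/+ cultures were not shown to differ for any member. Neither class II member passed the test in any comparison with the main edgeR fit. Under other settings Cd74 passed for the lesion in Synpo+/+ CA3 and between genotypes in control CA3.

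The cultures had been prepared at postnatal day 3 to 5 from mice of either sex and were kept for no less than 18 days before the entorhinal cortex was cut off with a scalpel, which removes the perforant path input to DG and CA3. Synpo+/+ cultures were C57BL/6J and Synpo-/- cultures came from the B6.129-Synpotm1Mndl/Dllr line, which had been backcrossed and is deficient in synaptopodin, the protein needed for the spine apparatus organelle. Each regional library was made from 1 DG or 1 CA3 area cut out of a single culture, with 2 control and 3 lesioned Synpo+/+ CA3 libraries, 4 and 7 Synpo+/+ DG libraries, 6 and 6 Synpo-/- CA3 libraries and 7 and 4 Synpo-/- DG libraries. Whole-culture input RNA, the cleared homogenate of 6 pooled cultures, was taken from 5 control and 5 lesioned Synpo+/+ samples and from 2 Synpo-/- samples whose labels give no lesion status. The labels call these libraries biological replicates, but do not say which cultures came from the same animal. The p-values therefore measure the spread between cultures and, in the input, between pools of 6 cultures.

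Class I molecules present peptides from the cell's own cytosol to CD8 T cells. The heavy chain folds with beta-2-microglobulin, receives a peptide that the Tap1 and Tap2 transporter has brought into the endoplasmic reticulum, and is held ready by tapasin until a peptide fits. Class II molecules, whose alpha and beta chains are guided by the invariant chain Cd74, present material taken up from outside the cell. In the brain class I genes are transcribed by microglia, endothelial cells and some neurons, where they have been linked to synapse remodelling, whereas class II genes are largely restricted to microglia and macrophages. Interferons raise both pathways, through Nlrc5 for class I and Ciita for class II.

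Of the members 6 lay together in the MHC of chromosome 17 (GRCm38), and with Tapbp at its edge 7 of the 10 members shared this chromosome. H2-K1 spans chr17:33996017-34000347 on the minus strand, Tap1 chr17:34187553-34197225, Tap2 chr17:34203527-34216321, H2-Aa chr17:34282744-34287823 on the minus strand, H2-D1 chr17:35262730-35267499, H2-T23 chr17:36029773-36032855 on the minus strand and Tapbp chr17:33915899-33929292. B2m lies at chr2:122147686-122153083 and Nlrc5 at chr8:94434356-94527272. Reads were counted without strand, and 29.0% of the exon bases of Tapbp overlap Zbtb22 and Gm19412, 18.5% of those of Tap2 overlap Gm15821 and Gm20496, and 3.87% of those of Tap1 overlap Psmb9, so that part of the reads counted for these 3 genes may belong to their neighbours. The overlap was at most 0.918% for any other member. Class I heavy chains are related in sequence. Of the 100-base windows in the annotated transcripts, 3.59% for H2-D1, 3.15% for H2-T23 and 0.957% for H2-K1 also occur in another gene's transcript, mainly that of another class I gene. The share was 14.8% for Tapbp, 4.99% for Tap2 and 1.93% for Tap1, and no window of B2m, Nlrc5, Cd74 or H2-Aa was shared.

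The sequence before the start sites is shown for the 4 heavy and light chain genes that rose together in the Synpo+/+ DG, since they carry the elements by which class I promoters are known. Each run holds the 250 bases before the RefSeq start site (GRCm38.p6, 5′ to 3′ on the gene's strand), with matches of the searched motifs in capitals.
H2-D1, chr17:35262844-35263093, plus strand: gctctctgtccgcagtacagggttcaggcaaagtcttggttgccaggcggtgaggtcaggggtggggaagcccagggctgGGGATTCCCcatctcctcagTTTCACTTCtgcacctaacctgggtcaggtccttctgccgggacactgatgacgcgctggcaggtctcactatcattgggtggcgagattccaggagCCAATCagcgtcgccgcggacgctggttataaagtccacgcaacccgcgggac
H2-K1, chr17:34000334-34000583, minus strand: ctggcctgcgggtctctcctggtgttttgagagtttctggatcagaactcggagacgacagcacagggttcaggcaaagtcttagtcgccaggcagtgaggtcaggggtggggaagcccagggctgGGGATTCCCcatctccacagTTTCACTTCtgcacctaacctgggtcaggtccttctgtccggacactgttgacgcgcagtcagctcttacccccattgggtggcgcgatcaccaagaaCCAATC
B2m, chr2:122147437-122147686, plus strand: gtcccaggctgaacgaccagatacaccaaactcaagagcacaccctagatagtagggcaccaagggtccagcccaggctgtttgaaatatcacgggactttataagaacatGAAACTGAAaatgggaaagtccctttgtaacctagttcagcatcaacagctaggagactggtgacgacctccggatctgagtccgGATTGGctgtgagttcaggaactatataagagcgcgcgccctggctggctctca
H2-T23, chr17:36032702-36032951, minus strand: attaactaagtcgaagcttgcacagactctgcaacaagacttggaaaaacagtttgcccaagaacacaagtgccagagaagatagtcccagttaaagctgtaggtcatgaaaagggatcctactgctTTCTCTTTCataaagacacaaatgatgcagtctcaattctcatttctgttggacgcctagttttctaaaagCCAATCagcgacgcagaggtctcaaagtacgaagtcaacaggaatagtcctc

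H2-D1 and H2-K1 shared an identical run of 47 bases, from position -201 to -155 before the start site in H2-D1 and from -155 to -109 in H2-K1, that holds the kappa B site of enhancer A (GGGATTCCC, searched on both strands). This site was found in 0.353% of the 32851 promoters of the RefSeq table and in these 2 members only. The Y box core (GATTGG) was found in 7 of the 8 listed member promoters (H2-D1, H2-T23, B2m, Tap1, H2-Aa and both H2-K1 entries, in 1 of them behind the start site), against 16.1% of all promoters. The core of the interferon-stimulated response element (GAAANNGAA) was found in B2m and H2-T23, against 8.56% of all promoters. Read from its other end (GAANNGAAA, a search added after the promoters had been read) it was found in H2-D1 and H2-K1, against 7.52%. The GAS core (gamma-activated sequence, TTCNNNGAA) was found in no listed member promoter, against 8.3% of all promoters, and the Tapbp promoter held none of these letters. These are matches of letters in a fixed window and were not tested for use. Tap2, Nlrc5 and Cd74 had no entry in the table.

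Levels per exon length spanned more than 3 orders of magnitude among the members. Over the 39 regional libraries the median was 1300 CPM per kb (CPM is the count scaled to a fixed library total) for B2m, 21.6 for H2-K1, 17.6 for H2-D1, 7.26 for Cd74, 6.23 for Tapbp, 1.24 for H2-T23, 1.02 for Tap1, 0.281 for Nlrc5, 0.281 for Tap2 and 0.169 for H2-Aa. The light chain thus lay far above the heavy chains it pairs with, in 39 of 39 libraries. Neighbours in this order were not always separable, since H2-K1 was above H2-D1 in 34 libraries, Cd74 above Tapbp in 27, H2-T23 above Tap1 in 29, Nlrc5 above Tap2 in 23 and Tap2 above H2-Aa in 31 of the 39.

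**Figure D1:**
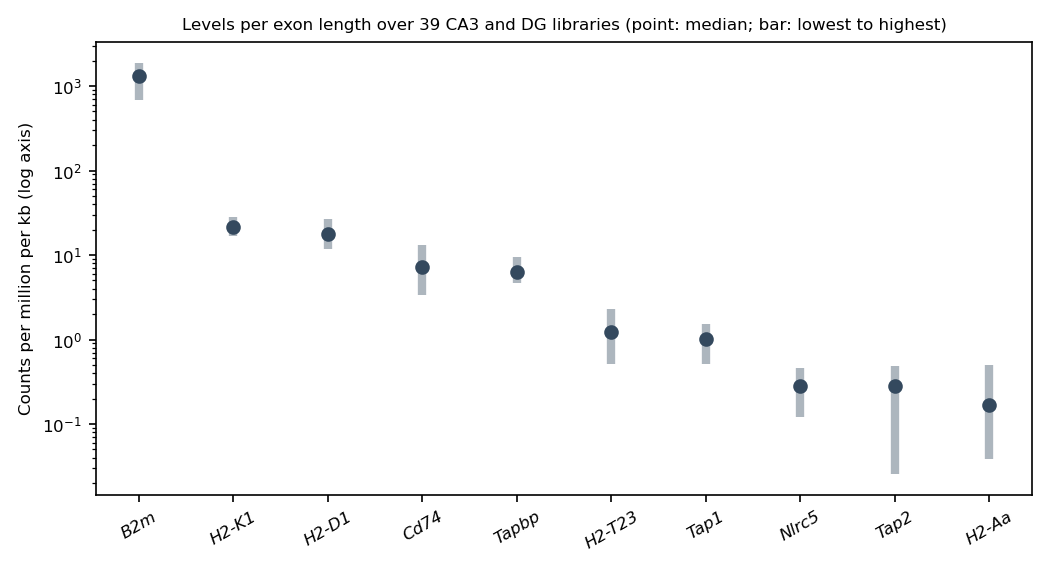
Level of each member in CPM per kb of exon length (log axis), with the median as a point and the range from the lowest to the highest of 39 CA3 and DG libraries as a bar. B2m stood above all other members in each library, while H2-Aa and Tap2 were at the low end, with medians of 0.169 and 0.281 CPM per kb.

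Between groups of regional libraries the members varied little. The highest group mean was 1.52 to 2.01 times the lowest, with the smallest ratio for Tapbp and the largest for Tap1. The lowest mean was that of the Synpo+/+ DG control for 5 members, namely H2-D1, H2-K1, H2-T23, B2m and Tapbp. The highest mean was that of the lesioned Synpo-/- DG for 6, namely H2-D1, H2-K1, B2m, Tap1, Tapbp and Nlrc5.

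Some libraries stood apart before any test. The lesioned Synpo+/+ DG replicate 5 had 14.4 CPM of Prox1, the granule cell transcription factor, where the other 6 libraries of its group had 164 to 207 CPM, and its summed 6 CA3 pyramidal cell markers reached 704 CPM. It carries a DG label but the marker pattern of CA3, and values without it are given beside the results of this group. All 4 Synpo+/+ DG control and both Synpo+/+ CA3 control libraries held more Xist than Y-linked reads, while the other regional groups were mixed. Synpo was not lower in libraries labelled Synpo-/-, with 50.7 ± 8.39 CPM (SD, n = 7) in the DG control against 22.2 ± 2.66 CPM (n = 4) in Synpo+/+, a log2 difference of 1.17 ± 0.13 (SE, adjusted p = 0.000517, edgeR). The exons removed in this allele are not given in the sources used here, so that this count does not check the labels. Regional libraries held 14055930 to 46043990 counts and the Synpo+/+ input libraries 19844632 to 29014397.

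The lesion raised class I genes in the Synpo+/+ DG. Of 10 members tested, 5 were higher and none was lower, beside 12.2% of all 23720 genes called in either direction and 7.86% called higher. The median log2 fold change of the members was 0.35, against -0.003 for all genes.

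H2-D1, one of the classical heavy chains, had 35.0, 32.5, 38.6 and 33.2 CPM in the 4 control libraries and 41.4 to 62.7 CPM (median 53.0) in the 7 lesioned libraries. The groups did not overlap, and the log2 fold change was 0.66 ± 0.12 (SE, adjusted p = 0.00324). H2-K1, the other classical heavy chain, had 52.2, 49.1, 49.2 and 54.7 CPM in control and 53.8 to 82.0 CPM (median 71.2) in lesioned libraries. Only lesioned replicate 1 lay within the control range, and the log2 fold change was 0.46 ± 0.11 (adjusted p = 0.0187).

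H2-T23, which encodes the class Ib molecule Qa-1 that is read by inhibitory receptors of natural killer cells, had 2.57, 2.76, 2.07 and 3.05 CPM in control and 2.86 to 6.56 CPM (median 3.85) in lesioned libraries. Its log2 fold change was 0.78 ± 0.23 (adjusted p = 0.0426), and the highest values were those of lesioned replicates 4 and 5. B2m had 709, 588, 930 and 1101 CPM in control and 928 to 1529 CPM (median 1209) in lesioned libraries, with a log2 fold change of 0.57 ± 0.17 (adjusted p = 0.0408). Lesioned replicate 2 lay within the control range and the other 6 above it. Tapbp, the bridge between heavy chain and transporter, had 17.4, 19.9, 17.9 and 19.1 CPM in control and 21.1 to 30.8 CPM (median 23.8) in lesioned libraries. Its groups did not overlap, with a log2 fold change of 0.46 ± 0.12 (adjusted p = 0.0232).

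The other 5 members did not pass the test in the Synpo+/+ DG. The transporter subunits had log2 fold changes of -0.01 ± 0.18 (Tap1, adjusted p = 0.965) and -0.36 ± 0.28 (Tap2, adjusted p = 0.373). For Nlrc5 the value was 0.25 ± 0.25 (adjusted p = 0.494), for Cd74 0.24 ± 0.24 and for H2-Aa -0.22 ± 0.55 (adjusted p = 0.793). Cd74 had 10.4, 5.82, 9.19 and 12.4 CPM in control and 6.04 to 18.0 CPM (median 10.2) in lesioned libraries. The highest value was that of lesioned replicate 5, the library with CA3 markers, and the other 6 lay within the control range. Without it the log2 fold change of Cd74 was 0.05 ± 0.19 (adjusted p = 0.869).

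**Figure D2:**
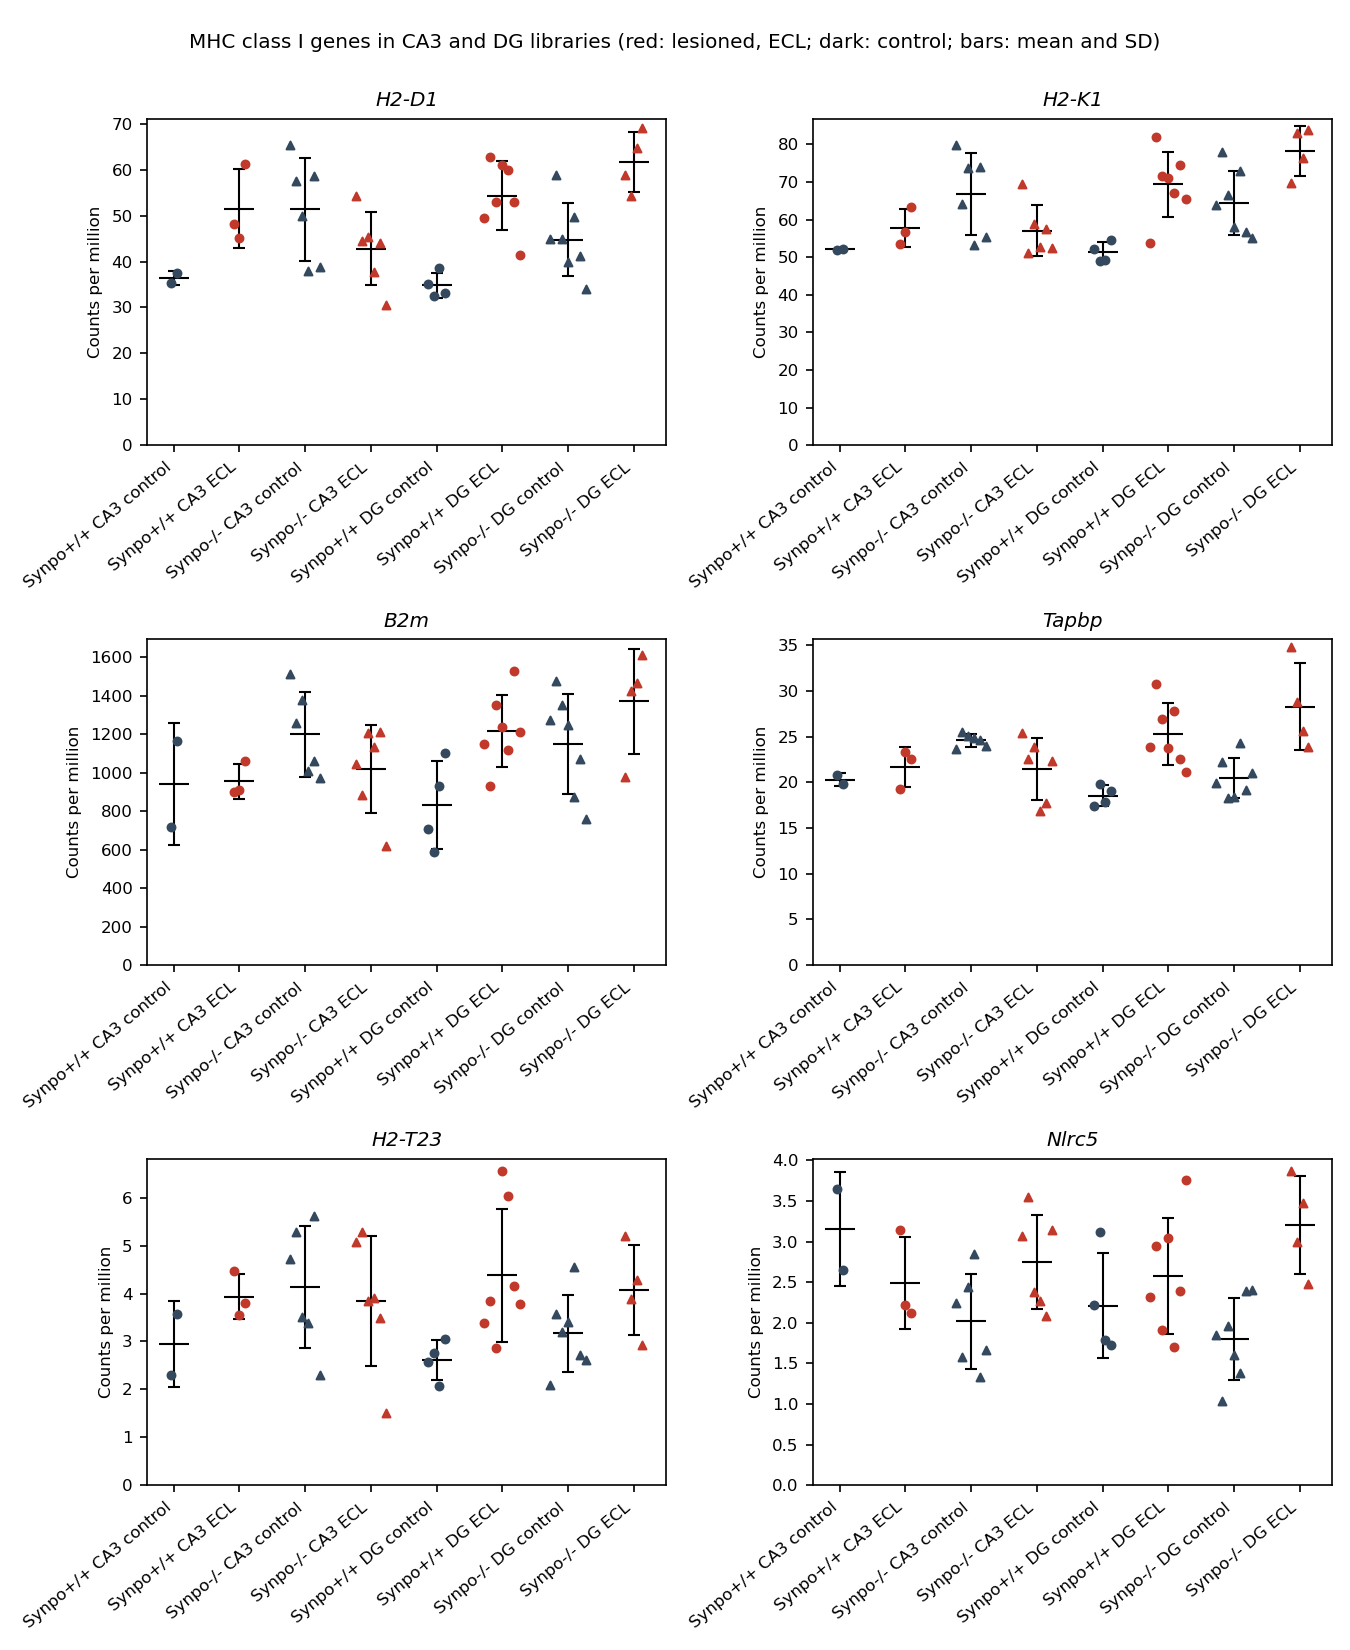
CPM of H2-D1, H2-K1, B2m, Tapbp, H2-T23 and Nlrc5 in each CA3 and DG library (circles Synpo+/+, triangles Synpo-/-; red lesioned, dark control), with the mean and SD of each group as bars. In the Synpo+/+ DG all 7 lesioned libraries lay above the 4 control libraries for H2-D1 and Tapbp, while in Synpo-/- CA3 the lesioned libraries lay within or below the control range for H2-D1.

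How firmly these calls stood differed between members. H2-D1 passed in all 11 fits that left out 1 library (adjusted p = 0.00185 to 0.0206). H2-K1 passed in 8, Tapbp in 7, and H2-T23 and B2m in 3 each. The number of called members was 1 without control replicate 2 or 3, beside 4.07% and 4.03% of all genes called, and 2 without control replicate 1 or 4, beside 9.15% and 3.99%. It was 3 without lesioned replicate 4 or 6, beside 5.94% and 8.53%. The share over all genes thus itself moved with single libraries, from 12.2% to 3.99% at the lowest. Without the CA3-like replicate 5, 4 members passed, beside 13.8% of all genes, with log2 fold changes of 0.62 for H2-D1, 0.44 for H2-K1, 0.57 for B2m and 0.42 for Tapbp, and H2-T23 did not (log2 fold change 0.66, adjusted p = 0.0578). After a trend with gene length had been removed from each library only H2-D1 passed (log2 fold change 0.42, adjusted p = 0.0243), 1 of 10 members beside 9.81% of all genes. With this setting the median over all genes went from -0.003 to -0.14 on the log2 scale and 842 genes were higher and 1484 lower, against 1864 higher of 2886 called without it. With the sex of the culture as a term, added after the data were seen, Tapbp no longer passed (log2 fold change 0.38, adjusted p = 0.0538). The other 4 did, beside 16.5% of all genes called.

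The partners of the members in the pathway rose in part. Counts in these lists stand beside 12.2% of all genes called in this comparison and 7.86% called higher. Among 13 tested genes of peptide supply and loading 5 were higher in the Synpo+/+ DG and none lower (median log2 fold change 0.40). They included Psmb8, a subunit of the immunoproteasome (log2 fold change 0.93 ± 0.14, adjusted p = 0.000889), and the proteasome activator subunits Psme1 (0.65 ± 0.10, adjusted p = 0.00146) and Psme2 (0.63 ± 0.11, adjusted p = 0.00297), together with Erap1, the aminopeptidase that trims peptides to length (0.54 ± 0.14, adjusted p = 0.0245). Among 17 other class I-like chains Fcgrt (0.68 ± 0.13, adjusted p = 0.00405), Hfe (0.74 ± 0.14, adjusted p = 0.00405) and H2-T22 (1.01 ± 0.20, adjusted p = 0.00576) were higher. Fcgrt and Hfe do not present peptides, as they encode the neonatal Fc receptor and a regulator of iron uptake. H2-T22 shares sequence with H2-D1 and H2-T23, and how the counting split their reads was not tested. H2-Q2 was lower (-1.37 ± 0.30, adjusted p = 0.0119).

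Of 15 genes of class II chains and loading 6 were higher and none lower in the Synpo+/+ DG, among them the lysosomal enzymes Lgmn (1.07 ± 0.13, adjusted p = 0.000265), Ifi30 (0.99 ± 0.15, adjusted p = 0.0011) and Ctsl (0.68 ± 0.12, adjusted p = 0.00306), and the peptide exchange factor subunit H2-DMb1 (1.28 ± 0.27, adjusted p = 0.00828). These enzymes act in lysosomes at large and not in antigen presentation alone. H2-Ab1, the partner chain of H2-Aa, had 29.9 CPM in lesioned and 29.2 CPM in control libraries (log2 fold change 0.06 ± 0.29, adjusted p = 0.894), and the class II transactivator Ciita 1.35 and 1.38 CPM.

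Interferon response genes were the list with the largest share of calls among the 6 pathway lists, with 12 of 20 tested genes higher in the Synpo+/+ DG, none lower and a median log2 fold change of 0.72. The 4 with the smallest p were Bst2 (1.36 ± 0.14, adjusted p = 6.42e-05), Ifitm3 (1.24 ± 0.16, adjusted p = 0.000293), Gbp3 (1.18 ± 0.20, adjusted p = 0.00254) and the receptor subunit Ifngr1 (0.73 ± 0.13, adjusted p = 0.00268). Of 17 regulators of MHC transcription Irf8 (0.65 ± 0.13, adjusted p = 0.00585) and Stat3 (0.50 ± 0.13, adjusted p = 0.0224) were higher, while Irf1 did not pass (0.18 ± 0.16, adjusted p = 0.435). This count is near the share over all genes, 12.2% called and 7.86% called higher, and shows no rise of the regulators as a list. None of 8 tested class I receptors and partners in neurons and glia passed. Without lesioned replicate 5 no call was lost in any of the 6 pathway lists, and 13 of 20 interferon genes were higher.

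Microglia markers moved with these results. In bulk tissue more cells of a type and more RNA per cell cannot be told apart. In the Synpo+/+ DG the sum of 15 microglia markers was 582 to 815 CPM (median 732) in control and 1418 to 1719 CPM (median 1572) in lesioned libraries, and 14 of the 15 markers were higher. Relative to 100 CPM of these markers, H2-D1 had 4.08 to 5.57 CPM (median 5.03) in control and 2.92 to 4.33 CPM (median 3.36) in lesioned libraries. B2m had 96.9 to 135 CPM (median 114) and 64.0 to 90.2 CPM (median 76.9) on the same scale. H2-D1 and B2m therefore rose by less than the marker sum, and the part of microglia in their change was not tested. Without lesioned replicate 5 the median of the marker sum was 1534 CPM with 15 of 15 markers higher, and H2-D1 and B2m had medians of 3.34 and 81.0 CPM per 100 CPM of the markers. Dendritic cell, T cell and B cell markers stayed low, with a sum over 13 genes of 16.7 to 19.5 CPM in control and 12.2 to 16.7 CPM in lesioned libraries none at 0 in all libraries of a group, and Cd79b alone called (higher). Of 10 endothelial markers 3 were lower and none higher, while 6 of 10 astrocyte and 3 of 6 perivascular macrophage markers were higher.

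**Figure D3:**
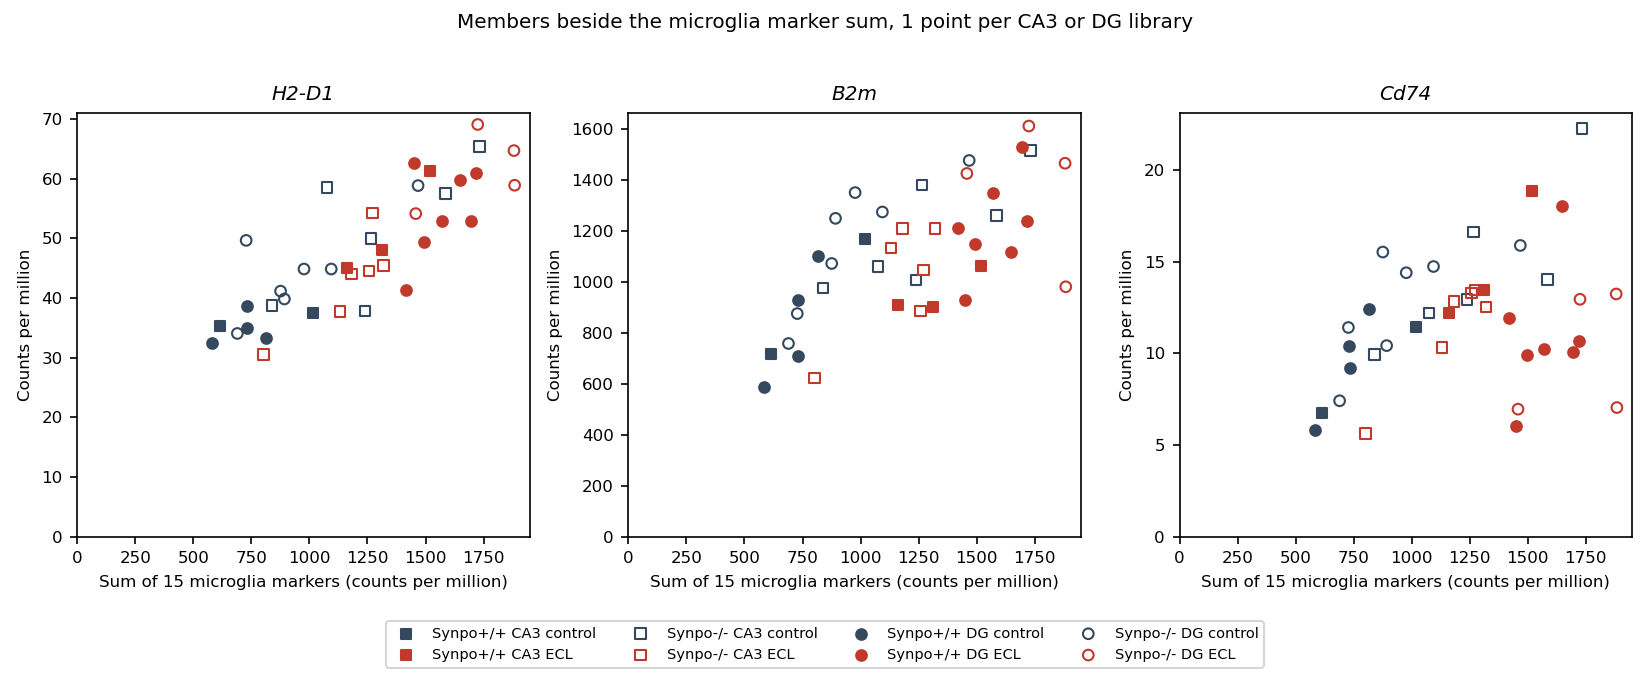
CPM of H2-D1, B2m and Cd74 against the sum of 15 microglia markers in CPM, 1 point per library (squares CA3, circles DG; filled Synpo+/+, open Synpo-/-; red lesioned, dark control). The lesioned Synpo+/+ DG libraries had marker sums of 1418 to 1719 CPM with 41.4 to 62.7 CPM of H2-D1 and 6.04 to 18.0 CPM of Cd74.

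In the Synpo-/- DG 3 of 10 members were higher and none lower, beside 8.53% of 23310 genes called in either direction and 5.17% called higher. The median log2 fold change of the members was 0.34. H2-D1 had 34.1 to 58.9 CPM (median 44.9) in 7 control libraries and 58.9, 54.2, 64.7 and 69.1 CPM in 4 lesioned libraries, with a log2 fold change of 0.48 ± 0.12 (adjusted p = 0.0219). Tapbp had 18.3 to 24.4 CPM (median 19.9) in control and 34.8, 28.8, 25.6 and 23.9 CPM in lesioned libraries, with a log2 fold change of 0.48 ± 0.11 (adjusted p = 0.0153). The groups overlapped through lesioned replicate 2 for H2-D1 and lesioned replicate 4 for Tapbp.

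Nlrc5, the transactivator of class I promoters, had 1.03 to 2.40 CPM (median 1.85) in control and 3.88, 2.99, 3.47 and 2.48 CPM in lesioned Synpo-/- DG libraries. These groups did not overlap, and the log2 fold change was 0.83 ± 0.23 (adjusted p = 0.0314). H2-K1 (0.30 ± 0.10, adjusted p = 0.0959), H2-T23 (0.38 ± 0.21, adjusted p = 0.311) and B2m (0.26 ± 0.17, adjusted p = 0.401) did not pass. Cd74 was on the other side of 0 (-0.34 ± 0.22, adjusted p = 0.416), with 7.42 to 15.9 CPM in control and 7.05, 6.96, 13.2 and 12.96 CPM in lesioned libraries. The values were 0.03 ± 0.15 for Tap1, 0.58 ± 0.34 for Tap2 and -0.29 ± 0.39 for H2-Aa.

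Leaving out 1 library at a time, H2-D1 passed in 9, Tapbp in 10 and Nlrc5 in 7 of 11 fits. One member was left without lesioned replicate 1 or 3, beside 4.56% and 4.89% of all genes, and 4 members passed without control replicate 2, beside 8.2%, among them H2-K1 (log2 fold change 0.34, adjusted p = 0.0476). The sum of microglia markers was 690 to 1468 CPM (median 892) in control and 1458 to 1884 CPM (median 1803) in lesioned libraries, with 11 of 15 markers higher, and per 100 CPM of these markers H2-D1 had a median of 4.60 in control and 3.58 in lesioned libraries. Of the pathway lists, 2 of 13 genes of peptide supply were higher (Psmb8 0.64 ± 0.15, adjusted p = 0.0159, and Psme1 0.39 ± 0.11, adjusted p = 0.0305), 4 of 16 class II genes and 6 of 20 interferon genes, led by Irf7 (1.40 ± 0.18, adjusted p = 0.000187). Over all genes 8.53% were called and 5.17% called higher. H2-Q2 was lower here too (-2.03 ± 0.26, adjusted p = 0.000173), and H2-Ab1 had 20.5 CPM in lesioned and 33.8 CPM in control libraries (-0.70 ± 0.22, adjusted p = 0.0588).

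In CA3 no member passed the test in either genotype. In Synpo+/+ CA3, where 1.78% of 22340 genes were called, H2-D1 had 35.3 and 37.5 CPM in the control and 48.1, 45.1 and 61.3 CPM in the lesioned libraries. These did not overlap, and the log2 fold change was 0.46 ± 0.15 (adjusted p = 0.109). Tap1 had 3.33 and 2.83 CPM against 4.61, 4.69 and 4.63 CPM (0.55 ± 0.24, adjusted p = 0.192), and Cd74 6.72 and 11.4 CPM against 13.4, 12.2 and 18.9 CPM (0.66 ± 0.25, adjusted p = 0.155). Both genes also had every lesioned library above both controls, as had H2-K1 (0.11 ± 0.12, adjusted p = 0.619). How many of all genes separate in this way with so few libraries was not counted, so no change is read from it. B2m (-0.02 ± 0.18, adjusted p = 0.957) and Tapbp (0.06 ± 0.14, adjusted p = 0.841) differed by less than the spread between libraries. The values were 0.37 ± 0.28 for H2-T23, 0.06 ± 0.44 for Tap2, -0.39 ± 0.31 for Nlrc5 and -0.24 ± 0.60 for H2-Aa.

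With 2 control libraries this comparison changed with the processing. The share of 1.78% over all genes fell to 0% without lesioned replicate 1 (edgeR, with 5352 genes at an unadjusted p under 0.05), to 0.00938% without lesioned replicate 2, to 1.03% without lesioned replicate 3 and to 0.442% without control replicate 1, and was 2.56% without control replicate 2. No member was called in any of these 5 fits. H2-D1 (log2 fold change 0.50, adjusted p = 0.0341) and Cd74 (0.70, adjusted p = 0.0139) passed without the filter on low counts, where the median of all genes was -0.24, and H2-D1 passed with the sex of the culture as a term (0.68, adjusted p = 0.0375). The microglia marker sum was 616 and 1017 CPM in the control and 1162 to 1518 CPM in the lesioned libraries, with 2 of 15 markers higher. Pdia3, an oxidoreductase of the peptide loading complex (0.76 ± 0.14, adjusted p = 0.0354), was the only one of 13 peptide supply genes called.

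In Synpo-/- CA3, with 6 libraries in each group, 9 of the 10 members were on the lower side after lesion and none passed, beside 0.077% of 20772 genes called. H2-D1 had 37.9 to 65.4 CPM (median 53.8) in control and 30.6 to 54.3 CPM (median 44.3) in lesioned libraries (log2 fold change -0.25 ± 0.14, adjusted p = 0.752). For H2-K1 the value was -0.21 ± 0.11 (adjusted p = 0.711), for B2m -0.23 ± 0.15 (adjusted p = 0.807) and for Cd74 -0.37 ± 0.20 (adjusted p = 0.748), and Nlrc5 alone was above 0 (0.46 ± 0.22, adjusted p = 0.702). The other 5 members lay between -0.33 (Tap2) and -0.05 (H2-Aa). The groups overlapped for all 10 members. The microglia marker sum was 839 to 1734 CPM (median 1252) in control and 801 to 1320 CPM (median 1220) in lesioned libraries and none of 15 markers was called.

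**Figure D4:**
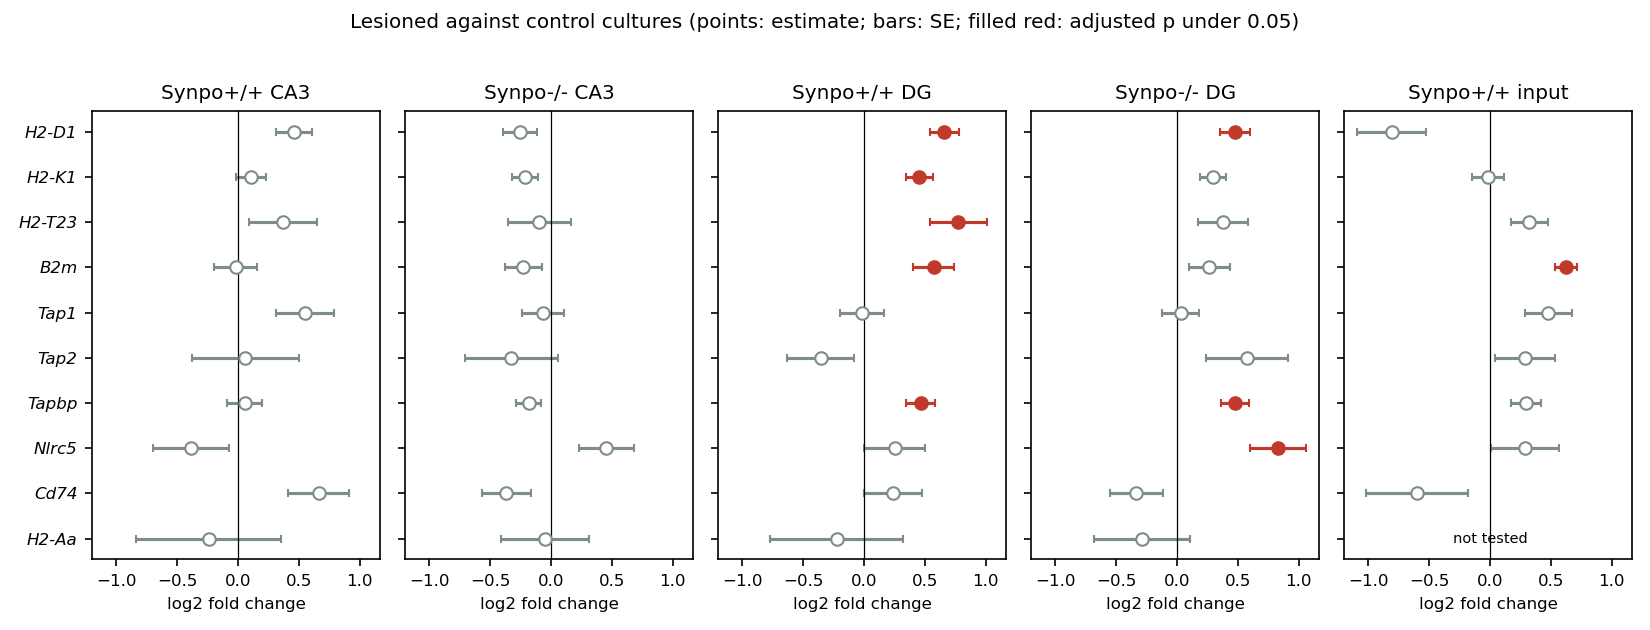
Log2 fold change of lesioned against control cultures for the 10 members in 5 comparisons (points, estimate; bars, SE; filled red, adjusted p under 0.05; H2-Aa was not tested in the input). The heavy chains, B2m and Tapbp stood to the right of 0 in DG of both genotypes, with H2-D1 at 0.66 in Synpo+/+ and 0.48 in Synpo-/-, and H2-D1 and B2m stood on opposite sides of 0 in the input, at -0.81 and 0.62.

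The differences between these lesion effects were tested themselves. Between DG and CA3 of Synpo-/- cultures 1 of 10 members differed, beside 1.12% of 25435 genes called in either direction and 0.877% called higher. Tapbp changed by 0.65 ± 0.15 more on the log2 scale in DG than in CA3 (adjusted p = 0.0325), with a lesion effect of 0.48 in DG and -0.18 in CA3. The value for H2-D1 was 0.71 ± 0.21 (adjusted p = 0.0997) and for H2-K1 0.49 ± 0.16 (adjusted p = 0.173), and the other 7 members lay between -0.25 (H2-Aa) and 0.89 (Tap2). The Tapbp difference passed in 12 of 23 fits that left out 1 library, with adjusted p = 0.109 at the highest. Tapbp did not pass with the replicate number as a block, nor without the filter on low counts (0.64, adjusted p = 0.0677). With the length trend removed it did not pass either (0.56, adjusted p = 0.0604) and H2-D1 did (0.62, adjusted p = 0.0368). Without CA3 control replicates 2, 3, 4 or 5, lesioned CA3 replicates 4 or 5, DG control replicates 3, 4 or 6, or lesioned DG replicates 1 or 2 no member was called, and 2 were called, with H2-D1 added, without CA3 control replicate 6 or DG control replicate 2. In Synpo+/+ cultures the same interaction called no member and 0% of 27783 genes with edgeR, with 1240 genes at an unadjusted p under 0.05. The difference was 0.15 ± 0.22 for H2-D1 (adjusted p = 1), whose lesion effect was 0.66 in DG and 0.46 in CA3, and the members lay between -0.61 (Tap1) and 0.58 (Nlrc5). Without lesioned DG replicate 5 it was 0.12 for H2-D1, and no member was called.

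Between genotypes no member passed the test of the difference between lesion effects. In CA3 the difference, Synpo-/- minus Synpo+/+, was -0.75 ± 0.28 for H2-D1 (adjusted p = 0.195) and -1.06 ± 0.41 for Cd74 (adjusted p = 0.205), with 0% of 26821 genes called by edgeR and 4589 at an unadjusted p under 0.05. The other 8 members lay between -0.65 (Tap1) and 0.81 (Nlrc5). In DG it was -0.22 ± 0.18 for H2-D1 (adjusted p = 0.577), -0.34 ± 0.25 for B2m (adjusted p = 0.545) and 0.55 ± 0.34 for Nlrc5 (adjusted p = 0.501), with 0.00381% of 26245 genes called, and the other 7 members lay between -0.62 (Cd74) and 0.90 (Tap2). Without lesioned Synpo+/+ DG replicate 5 the difference was -0.19 for H2-D1, -0.36 for B2m and 0.46 for Nlrc5, and no member was called. That Nlrc5 was called in 1 genotype and B2m in the other is therefore not shown to be a difference between the genotypes.

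Libraries labelled Synpo-/- and Synpo+/+ were also compared directly, and no member passed. In control DG all but 3 members were on the higher side in Synpo-/- (median log2 difference 0.19), beside 0.0166% of 24143 genes called. H2-K1 had 49.1 to 54.7 CPM in Synpo+/+ and 55.1 to 77.9 CPM in Synpo-/- libraries, which did not overlap (log2 difference 0.31 ± 0.10, adjusted p = 0.221). The other 9 members lay between -0.69 (Tap2) and 0.45 (B2m). In control CA3, with 0.00413% of 24203 genes called, Tap1 had 3.33 and 2.83 CPM in Synpo+/+ and 5.44 to 7.80 CPM in Synpo-/- libraries (0.95 ± 0.22, adjusted p = 0.104), and Cd74 6.72 and 11.4 against 9.95 to 22.3 CPM (0.66 ± 0.28, adjusted p = 0.265). Every Synpo-/- library lay above both Synpo+/+ libraries for Tap1, H2-D1 (0.47 ± 0.19, adjusted p = 0.254), H2-K1 and Tapbp, while the groups overlapped for Cd74. The other members lay between -0.67 (Nlrc5) and 0.50 (H2-Aa). The share of all genes that separate in this way was not counted in control DG or control CA3, so no genotype effect is read from it. With DESeq2 Tap1 passed (0.98, adjusted p = 0.00925) and without the filter on low counts Tap1 (0.98, adjusted p = 0.0227) and Cd74 (0.69, adjusted p = 0.0351) passed. The microglia marker sum was also on the higher side in Synpo-/- controls, with medians of 1252 against 816 CPM in CA3 and 892 against 732 CPM in DG. In lesioned cultures 0.00891% (CA3) and 0.0166% (DG) of genes were called and the members' median difference was 0.01 and 0.17. The members lay between -0.39 (Tap2) and 0.69 (H2-Aa) in CA3 and between -0.14 (Cd74) and 0.30 (Nlrc5) in DG, and without lesioned Synpo+/+ DG replicate 5 the value of Cd74 in DG was 0.04.

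Cd74 (chr18:60803848-60812652) lies on the chromosome of the targeted gene. It starts 143.7 kb from the end of Synpo (GRCm38), with 2 protein-coding genes, Ndst1 and Rps14, in between, and a segment of the strain in which an allele was made can stay beside it after backcrossing. Any effect of such a segment on Cd74 and an effect of the missing protein cannot be told apart in these data.

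Between regions of control cultures no member passed. DG minus CA3 was -0.08 ± 0.14 for H2-D1 in Synpo+/+ (adjusted p = 0.85) and -0.14 ± 0.13 in Synpo-/-, beside 5.39% of 25656 and 25.5% of 21408 genes called. The nearest to the threshold were Tap1 in Synpo+/+, with 4.76 to 6.27 CPM in DG above 3.33 and 2.83 CPM in CA3 (0.84 ± 0.25, adjusted p = 0.0698), and Tapbp in Synpo-/- (-0.21 ± 0.08, adjusted p = 0.0662), with 18.3 to 24.4 CPM in DG and 23.6 to 25.5 CPM in CA3. Tapbp passed with RLE scaling (-0.24, adjusted p = 0.035), with DESeq2 (-0.26, adjusted p = 0.0134) and without DG control replicate 5 (-0.29, adjusted p = 0.0103). The other 8 members lay between -0.53 (Nlrc5) and 0.39 (H2-Aa) in Synpo+/+ and between -0.33 (H2-T23) and 0.06 (Tap1) in Synpo-/-.

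The whole-culture input gave another picture of the classical heavy chains. Only B2m was called among 9 tested members, beside 5.61% of 17951 genes in either direction and 2.45% higher. B2m had 420, 354, 346, 414 and 378 CPM in the control and 507, 587, 562, 598 and 697 CPM in the lesioned input libraries. The groups did not overlap, the log2 fold change was 0.62 ± 0.09 (adjusted p = 0.00215), and the call held in all 10 fits that left out 1 library.

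H2-D1, in contrast, had 105.0, 127, 84.8, 101 and 90.7 CPM in the control and 40.3, 34.7, 31.9, 74.7 and 109 CPM in the lesioned input libraries. Lesioned replicates 1 to 3 lay far below every control while replicate 5 lay among them, so that the log2 fold change was -0.81 ± 0.28 (adjusted p = 0.117). Without lesioned replicate 5 it was -1.17 and passed (adjusted p = 0.00557), and so it did without the filter on low counts (-0.81, adjusted p = 0.032). H2-K1 showed no such split, with 70.4 to 107 CPM in control and 69.6 to 103 CPM in lesioned libraries (-0.02 ± 0.13, adjusted p = 0.967). The ratio of H2-D1 to H2-K1 was 0.984 to 1.45 (median 1.21) in control input and 0.457 to 1.06 (median 0.543) in lesioned input, while in the 39 regional libraries it stayed between 0.583 and 0.969.

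Further MHC chains of the lists moved in the lesioned input. H2-K2 (-0.90 ± 0.24, adjusted p = 0.0396), H2-Q10 (-1.45 ± 0.31, adjusted p = 0.0161) and H2-Ab1 (-0.76 ± 0.15, adjusted p = 0.00948) were lower and H2-T22 was higher (0.52 ± 0.11, adjusted p = 0.0148). H2-Ab1 had a mean of 28.2 CPM in lesioned and 47.7 CPM in control input. H2-K2, H2-Q10 and H2-T22 share sequence with the members, and how the counting split their reads was not tested. Interferon genes were higher, with 9 of 20 called and none lower, led by Irf7 (1.05 ± 0.12, adjusted p = 0.000437) and Bst2 (0.73 ± 0.12, adjusted p = 0.0042), beside 5.61% of all genes called and 2.45% called higher. The microglia marker sum was 1154 to 1847 CPM (median 1755) in control and 1617 to 2709 CPM (median 2325) in lesioned input, with 7 of 15 markers higher. The libraries were uneven in these markers, since control replicates 1 and 2 had 1154 and 1205 CPM against 1755 to 1847 CPM in the other 3, and lesioned replicates 1 and 2 had 1617 and 1777 CPM against 2325 to 2709 CPM.

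Cd74 was uneven in the control input. Control replicates 1 and 2 had 182 and 69.2 CPM, the other 3 had 31.9, 33.1 and 32.2 CPM, and the lesioned libraries had 65.0, 40.9, 35.6, 43.3 and 45.7 CPM (-0.60 ± 0.42, adjusted p = 0.476). The 2 high controls were those with the low microglia marker sums, and the part of this in the result was not tested. H2-Aa, its class II partner, was at 0 to 0.633 CPM in control and 0.0387 to 0.726 CPM in lesioned input and was not tested. Tap1 had 3.30 to 6.51 CPM in control and 5.06 to 6.49 CPM in lesioned input (0.48 ± 0.20, adjusted p = 0.185), and it passed without control replicate 5 (0.70, adjusted p = 0.02). Tapbp (0.29 ± 0.12, adjusted p = 0.202), H2-T23 (0.32 ± 0.15, adjusted p = 0.251), Tap2 (0.29 ± 0.25, adjusted p = 0.59) and Nlrc5 (0.28 ± 0.28, adjusted p = 0.647) did not pass.

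**Figure D5:**
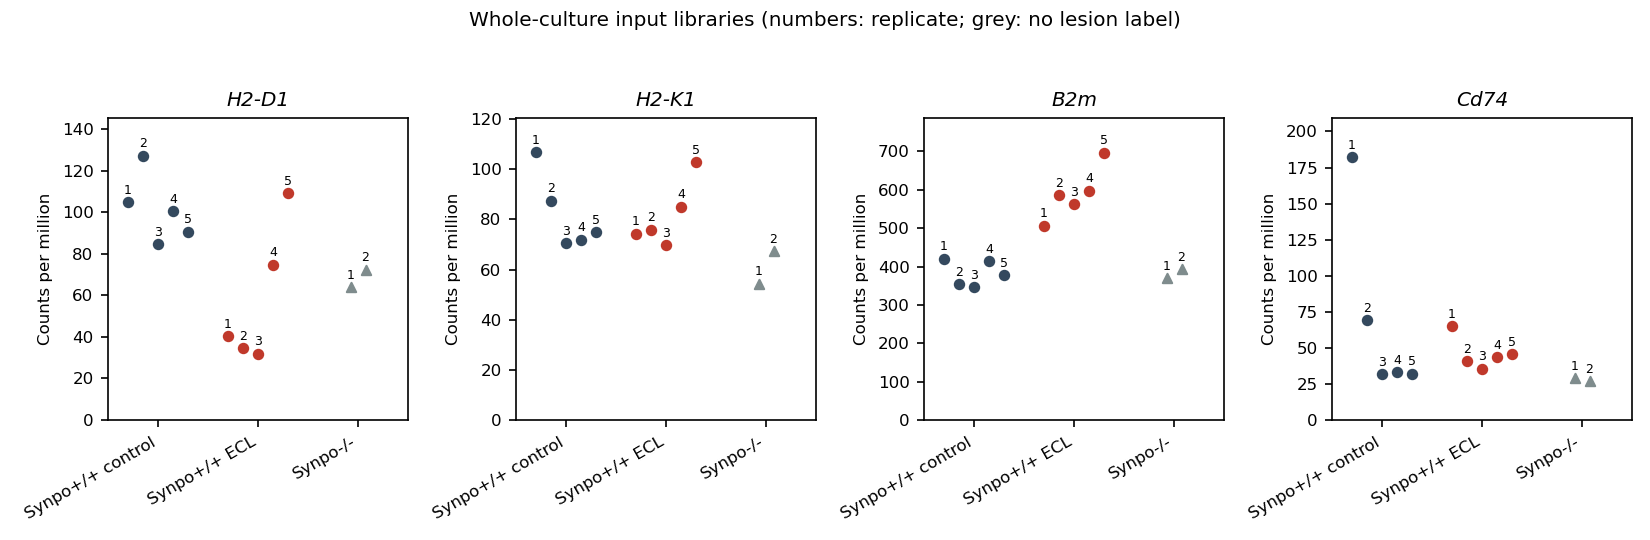
CPM of H2-D1, H2-K1, B2m and Cd74 in each whole-culture input library (dark, Synpo+/+ control; red, Synpo+/+ lesioned; grey triangles, Synpo-/- with no lesion label; numbers are replicates). Lesioned replicates 1 to 3 had 31.9 to 40.3 CPM of H2-D1, below all controls, while B2m was above all controls in the 5 lesioned libraries, and control replicate 1 had 182 CPM of Cd74.

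The 2 Synpo-/- input libraries, which entered no test, had 63.9 and 72.4 CPM of H2-D1, 54.4 and 67.3 CPM of H2-K1, 370 and 393 CPM of B2m and 29.0 and 26.9 CPM of Cd74. Input and regional libraries were prepared separately and were not compared by a test. B2m was lower and Cd74 higher in the input than in any regional group, with group means of 383 and 590 CPM of B2m in Synpo+/+ input and 832 to 1370 CPM in the regional groups.

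The genes nearest in group pattern were sought for H2-D1, B2m and Cd74. Over the 8 regional group means, centred on the log2 scale, the gene nearest to B2m among 11385 genes was the member H2-K1, with a root mean square difference of 0.06, followed by Bcl2a1b, Gstk1, Cybb and Limd1 (0.06 to 0.08). The 5 nearest to H2-D1 were Rnh1, Asrgl1, Agtrap, Lair1 and Slc31a2 (0.06), against a median of 0.28 for all genes. Those nearest to Cd74 were Ankzf1, Rpa2, Arel1, Gpank1 and Commd10 (0.08). H2-K1 was the only member among the nearest genes of these 3. Only genes with a mean of at least 5 CPM over the regional libraries were compared. H2-T23, Tap2, Nlrc5 and H2-Aa lay below this level and could not appear. Without lesioned Synpo+/+ DG replicate 5, 4 of the 5 nearest were the same for H2-D1, 4 of 5 for B2m and 5 of 5 for Cd74.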

How the data were processed

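RNA-seq libraries of DG and CA3 areas (39) and of whole-culture input (12) were used, 51 of 63 samples, and 12 coimmunoprecipitation libraries were not used here. The deposited values are raw read counts per gene, made by the authors with cutadapt 3.5, STAR 2.7.8a on mm10 and featureCounts 2.0.1 over exons of GENCODE M25, without strand. Groups were taken from the sample labels. No libraries of a group held identical counts. Low genes were removed with filterByExpr (minimum count 10, minimum total 15), counts were TMM-scaled, and groups were compared with edgeR 4.0.16 (R 4.3.3), using the quasi-likelihood test with Benjamini-Hochberg adjustment over all genes tested and a threshold of 0.05. Only the groups of a comparison entered its fit, and interactions used 4 groups. CPM values were scaled to effective library sizes, the filtered total times the TMM factor, taken over all 51 libraries used. Alternatives were RLE scaling, DESeq2 1.42.0, no filter, removal of a length trend, a replicate block, a joint fit of the 4 groups from each region, leaving out single libraries and, added after the data were seen, a sex term. The fits were tested on simulated data with known changes. A 1.5-fold change was recovered for 21 of 100 genes in Synpo+/+ DG, 16 in Synpo+/+ CA3 and 67 in the Synpo+/+ input. A 2-fold change was recovered for 88, 79 and 99. In the regional comparisons a member that did not pass may therefore still have changed by 1.5-fold. The members and lists were chosen with earlier results of these data known. Each member is accounted for in every comparison, by its value or within a range, with at most 4 called genes per list by smallest p. Regional libraries held 14055930 to 46043990 counts (median 22354491). Same-numbered libraries were not taken as pairs.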

Additional observations from a re-analysis of the deposited data

Results flagged for a closer look

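In 6 of 80 combinations of a member and a group of 4 to 10 libraries 1 library lay far from the others by Dixon's criterion, and chance flags about 1 in 20. Tap1 had 7.80 CPM in Synpo-/- CA3 control replicate 1, where the next library had 6.14 and the median was 5.80 CPM. In the Synpo+/+ input Tap1 had 6.51 CPM in control replicate 5 (next 3.91, median 3.36 CPM). Tap2 had 0.0969 CPM in lesioned Synpo-/- CA3 replicate 5 (next 0.766, median 0.935 CPM) and 1.62 CPM in Synpo-/- DG control replicate 5 (next 0.902, median 0.661 CPM). Cd74 had 182 CPM in Synpo+/+ input control replicate 1 (next 69.2, median 33.1 CPM). H2-Aa had 1.88 CPM in lesioned Synpo+/+ DG replicate 7 (next 0.802, median 0.442 CPM).

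The lesion effect on Tapbp differed between regions of Synpo-/- cultures, being 0.65 higher on the log2 scale in DG than in CA3 by the interaction test (adjusted p = 0.0325, edgeR). The call stood in 12 of 23 fits that left out 1 library. It was lost without the filter on low counts (adjusted p = 0.0677), with the length trend removed (adjusted p = 0.0604) and with the replicate block.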

How the results depend on the processing

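The 10 calls of members kept their direction and stayed past the threshold with RLE scaling and with DESeq2, while 1 was lost without the filter on low counts, 5 with the length trend removed, 5 with the replicate block, none of 8 with all 4 groups in one fit and 1 of 8 with the sex term. Members called in Synpo+/+ CA3 numbered 2 without the filter, beside 5.67% of all genes, and 1 with the sex term, beside 6.5%. The main fit called 0, beside 1.78%. In Synpo+/+ DG the count was 1 with the length trend removed, beside 9.81% of all genes, against 5 beside 12.2%. In the input it was 2 without the filter, beside 3.31%, against 1 beside 5.61%. Between genotypes in control CA3 it was 1 with DESeq2, beside 6.34% of all genes, and 2 without the filter, beside 2.05%, against 0. Between regions of Synpo-/- controls it was 1 with RLE and with DESeq2, against 0, where the main fit called 25.5% of all genes. For region by lesion in Synpo-/- it was 2 with DESeq2 and 0 without the filter, against 1, where the main fit called 1.12%. The causes were not tested. Leaving out 1 library gave 1 to 4 members in Synpo+/+ DG, 1 to 4 in Synpo-/- DG, 1 to 2 in the input, 0 to 1 between regions of Synpo-/- controls, 0 to 2 for region by lesion in Synpo-/- and 0 to 0 elsewhere. In these fits the share of all genes called ran from 3.99% to 14.4% in Synpo+/+ DG, 4.56% to 8.21% in Synpo-/- DG and 1.97% to 5.87% in the input. Where 1 Synpo+/+ CA3 control was left, it was assumed to vary like the other group.

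Same-numbered libraries were not paired, since the labels tie no number to a shared culture. In no comparison was every correlation of their deviations over 0.1, but this bar does not exclude pairing. Between regions of Synpo-/- controls all 6 were positive (0.0513 to 0.445, 5 of them over 0.1) and 7 of 12 libraries correlated best with their own number, and the block called 6065 genes against 5467 and no member. In no comparison with 3 or more shared numbers did every library correlate best with its own number. Whether DG and CA3 libraries of a number came from a shared culture was not settled, and the main fits treated them as independent. With the replicate block 0 members were called in Synpo-/- DG (H2-D1 0.40, adjusted p = 0.167), beside 2.84% of all genes. In control CA3 between genotypes 4 were called (H2-D1, B2m, Tap1 and Cd74, where 2 control numbers are shared), beside 9.22%. For region by lesion in Synpo-/- 0 were called (Tapbp 0.65, adjusted p = 0.052). H2-T23 was lost in Synpo+/+ DG (0.64, adjusted p = 0.0682), where 4 members were called beside 12.6% of all genes.

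Over all genes the count in Synpo+/+ CA3 ran from 1 (all 4 groups in one fit) and 96 (length trend removed) over 258 (RLE), 875 (block), 1452 (sex term) and 1457 (DESeq2) to 2716 (no filter), against 397. In Synpo-/- DG it was 662 with the block against 1989, in the input 1676 with DESeq2 against 1007, and between genotypes in control CA3 834 with DESeq2, 1022 without the filter and 2232 with the block against 1. In Synpo-/- CA3 it was 68 with DESeq2 and 86 without the filter against 16, in control DG between genotypes 259 with DESeq2 against 4, and for genotype by lesion in CA3 383 with DESeq2 against 0. Tap2 and H2-Aa reached at most 1.85 and 1.88 CPM in regional libraries, where counting error limits what can be detected.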

Other observations

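The ratio of H2-K1 to B2m, of a classical heavy chain to the light chain, had group medians of 0.0528 to 0.0632 in the regional libraries. In the Synpo+/+ input it was 0.173 to 0.254 (median 0.203) in control and 0.124 to 0.147 (median 0.142) in lesioned libraries, which did not overlap, and 0.147 and 0.171 in the Synpo-/- input libraries. In the input H2-D1 per 100 CPM of microglia markers was 4.83 to 10.6 CPM (median 5.45) in control and 1.37 to 4.04 CPM (median 2.49) in lesioned libraries. The 2 highest, 9.1 and 10.6, were those of control replicates 1 and 2, and the other 3 controls had 4.83 to 5.45.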
